A study of Homo sapiens with 124 samples.

Results

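The 8 genes described here encode proteins of the nuclear lamina, a meshwork under the inner nuclear membrane, and of the membrane and chromatin partners that hold it in place. They are LMNB1, LMNA, LMNB2, LBR, TMPO, LEMD3, BANF1 and SUN1, and their positions on the human genome build hg19 select 12 of the 30376 bins of 100 kb in the deposited table. Of these 30376 bins, 26426 were usable, which excludes bins without a number and bins at 0 throughout, and all 12 gene bins were among them. The data are DamID maps of single KBM7 cells, a near-haploid human leukaemia line, and all belong to a single group: haploid cells of clone 14 that carry a Dam fusion of LaminB1, the protein that LMNB1 encodes. The fusion was induced with 0.5 nM Shield1, a small molecule that stabilises it, for 15 h before the smallest 2% of cells positive for both Fucci cell cycle markers were sorted. Columns were present for 118 cells, which come from this clone alone and from an unstated number of cultures.

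Lamins are intermediate filament proteins. LMNB1 and LMNB2 encode the B-type lamins, which stay attached to the nuclear membrane, and LMNA encodes lamins A and C, part of which is also found in the nuclear interior. LBR, LEMD3 and SUN1 encode proteins of the inner nuclear membrane, and so does TMPO for part of its products. LBR and LAP2 proteins from TMPO are among those that bind lamins directly. BANF1 encodes a small DNA-binding protein that links chromatin to LEM-domain proteins such as those of TMPO and LEMD3. Chromatin held at the lamina is known to be poor in genes and mostly silent, whereas genes that every cell transcribes tend to lie in the nuclear interior.

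Dam methylates adenine in GATC, and only fragments cut at methylated GATC enter the sequencing library. The 250 bases before the transcription start are shown, with GATC in capitals, for LMNB1 and TMPO, whose bins fell furthest below their surroundings. LBR is shown because it alone beside LMNB1 held the motif among the 7 genes with such a sequence. SUN1 had none, so its promoter was not examined. The sequences are taken from RefSeq on GRCh38.p14, whose coordinates cannot be set against the hg19 bins used elsewhere.
LMNB1, first start, chr5:126776373-126776622, plus strand: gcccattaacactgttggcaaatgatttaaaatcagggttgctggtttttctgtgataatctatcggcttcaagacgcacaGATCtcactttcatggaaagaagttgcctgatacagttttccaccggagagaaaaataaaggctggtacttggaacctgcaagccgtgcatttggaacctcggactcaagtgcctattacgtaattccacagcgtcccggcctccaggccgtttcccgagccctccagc
LMNB1, second start, chr5:126776886-126777135, plus strand: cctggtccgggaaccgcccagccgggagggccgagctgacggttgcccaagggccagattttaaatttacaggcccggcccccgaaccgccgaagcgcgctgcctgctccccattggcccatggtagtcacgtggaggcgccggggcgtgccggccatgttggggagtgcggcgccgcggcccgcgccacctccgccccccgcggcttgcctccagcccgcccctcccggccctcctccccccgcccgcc
TMPO, first start, chr12:98515323-98515572, plus strand: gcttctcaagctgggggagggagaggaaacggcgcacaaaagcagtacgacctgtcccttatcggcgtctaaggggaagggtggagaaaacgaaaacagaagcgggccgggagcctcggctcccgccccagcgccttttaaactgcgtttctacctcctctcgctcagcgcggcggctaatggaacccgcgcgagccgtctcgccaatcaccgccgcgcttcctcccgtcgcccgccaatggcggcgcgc
LBR, chr1:225428822-225429071, minus strand: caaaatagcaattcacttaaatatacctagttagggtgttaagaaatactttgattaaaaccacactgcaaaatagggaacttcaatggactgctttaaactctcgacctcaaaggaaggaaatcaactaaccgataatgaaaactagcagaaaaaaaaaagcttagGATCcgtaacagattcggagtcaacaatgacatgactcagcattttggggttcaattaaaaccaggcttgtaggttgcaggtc
GATC, which reads the same on both strands, occurred once before the first LMNB1 start and once before LBR. It was found in 2 of the 11 sequences of this kind that matched 7 of the 8 genes, and in 35.8% of all 35116 such sequences. A bin of 100 kb holds many other GATC sites, and its ratio is not a reading of the promoter. Each of these genes lies in 1 or 2 bins, so exons, introns and promoter were not resolved.

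A ratio of observed to expected reads was deposited for each bin and cell, and a bin was taken as in contact with the lamina in a cell when its ratio was 1 or more. Whole reads could be recovered from the ratios and numbered 28372 to 385661 per cell. A ratio of 1 in the median bin stood for 1.17 reads in the shallowest cell, 5.63 in the median cell and 15.9 in the deepest. In 11 of the 12 gene bins the mean ratio was higher in the 28 cells numbered 96 to 124 than in the 90 numbered 1 to 94. The share of all usable bins with this direction was not computed, so the count cannot be called a trait of these genes. This split by sample number was seen in the data and is no group of the study, and values for both sets are given where they bear on a result. On whole chromosomes 3 cells stood apart, with no contact and at most 10% of the median ratio. Cell 119 lacked contact on chromosome 15 and on chromosome 5, which carries LMNB1, and its mean ratio was 0.0215 on chromosome 5 against a median over cells of 1.08. Cell 77 lacked it on chromosome 13 and on the 9:22 chromosome of the table, and cell 91 on chromosome 20, none of which carries a gene described here. Without cells 77 and 119 the LMNB1 bin stayed at 0% and the TMPO bin was at 0% in the other 116 cells.

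The lamina genes were seldom at the lamina. Of the 12 bins, 6 were in contact in no cell, where 22.3% of all usable bins were. The count was 3 at a contact value of 0.5, beside 4.95% of all usable bins, and 3 with each cell thinned to 50000 reads, beside 13.6%. At most 5% of cells were in contact in 10 of the 12 bins and in 38.8% of all usable bins. All 12 lay under a contact frequency of 20%, that is, in contact in under 20% of cells, as did 51.1% of all usable bins. Their median frequency was 0.424%, beside a median of 17.8% and quartiles of 0.847 and 69.5% over all usable bins. The bins of LMNB1, LMNB2, BANF1 and SUN1 and the first LMNA bin had 0 of 118 cells in contact, which allows a frequency of up to 2.54% (3 cells of 118) and has an exact 95% upper limit of 3.08%. The highest were the first LBR bin with 16 cells (13.6%, exact 95% interval 7.95 to 21.1%) and the second LEMD3 bin with 13 cells (11.0%, 6.00 to 18.1%). The other bins of these genes followed with 5 cells each (4.24%, 1.39 to 9.61%), and TMPO and the second LMNA bin had 1 cell each (0.847%, 0.0215 to 4.63%). Intervals of neighbours in this order overlap, and they cover the counting of cells only. In all, 86 of 118 cells touched the lamina with none of the 12 bins, 26 cells with 1 bin and 6 cells with 2 or more. The most was 4 bins, in cell 77.

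**Figure D1:**
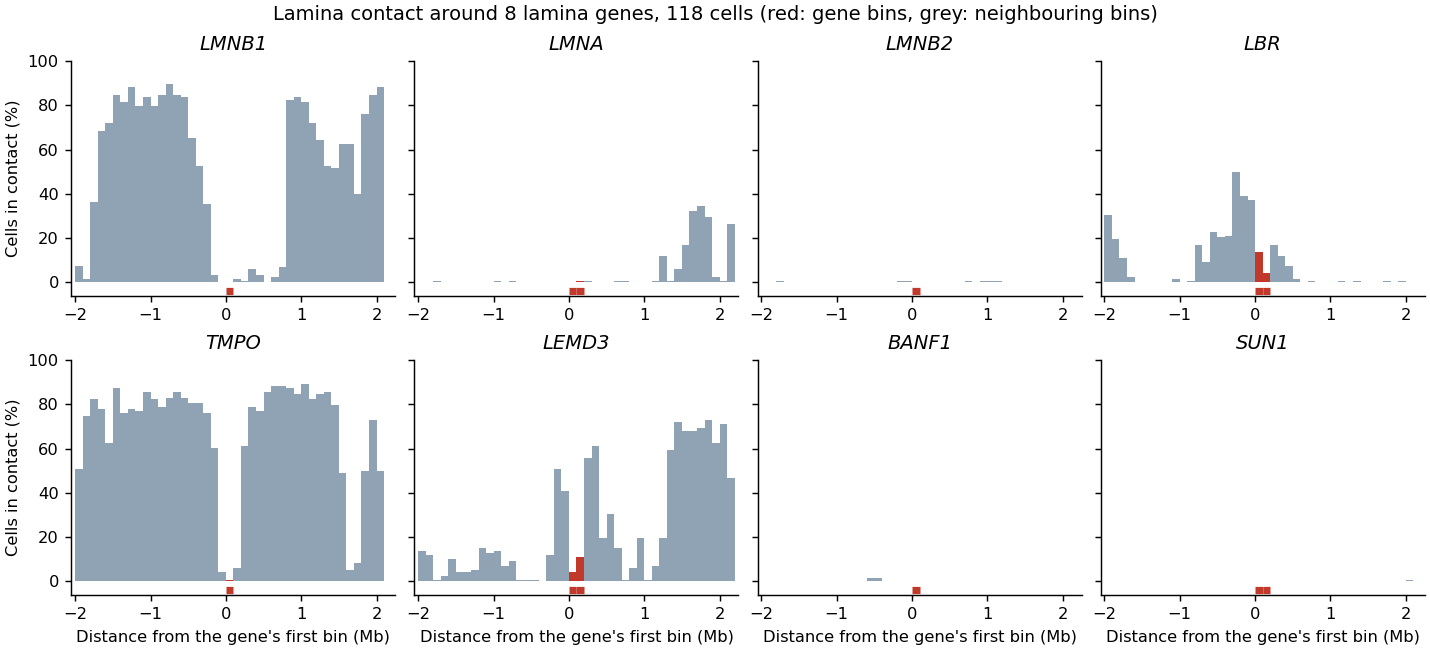
Percentage of 118 cells in contact with the lamina (vertical axis) in 100 kb bins within 2 Mb of each gene (horizontal axis, Mb from the start of the gene's first bin), with gene bins in red, marked below the axis, and neighbouring bins in grey. LMNB1 and TMPO lie in gaps between blocks that reach 89.8 and 89.0%. LBR and LEMD3 lie within 0.3 Mb of bins at up to 50.0 and 61.0%. LMNA, LMNB2, BANF1 and SUN1 had almost no contact within 1 Mb, and LMNA had bins at up to 34.7% farther out.

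To test whether a gene stands out from its surroundings, the contact of its bin in a cell was set against the mean contact, in the same cell, of the usable bins within 1 Mb on either side. The difference over cells was tested two-sided with 100000 random sign flips for all 25883 bins that had at least 5 usable bins on each side, and p-values were adjusted by the Benjamini-Hochberg method over these bins. For a gene with 2 bins, the flanks of each include the other. The p-values measure the spread between cells of this clone. Of the 12 gene bins, 5 were lower than their flanks at an adjusted p below 0.05 and 0 were higher. Among all tested bins, 37.2% were lower and 30.3% higher, so the count of lower gene bins lies near the share over the genome, and no gene bin was among the higher ones. The genes differed in how large the difference was.

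LMNB1, the gene of the B-type lamin whose protein carried Dam in these cells, lies on chromosome 5 between 126.11 and 126.18 Mb, within the bin from 126100001 to 126200000. The ratio in this bin had a lowest value of 0, a median of 0 and a highest value of 0.651, in cell 112, and 96 of 118 cells had no read there. The 42 reads in all cells together compare with 605 at a ratio of 1, a pooled ratio of 0.0695 (exact Poisson interval 0.0501 to 0.0939, for the counting of reads without molecular identifiers only). Thus no cell came up to the contact value, although a ratio of 1 stood for 5.08 reads in the median cell and for 1.06 to 14.3 reads over all cells. Averaged over cells, the ratio was 0.0284 in the lower-numbered set, cells 1 to 94, and 0.153 in cells 96 to 124. Reads from the gene and from the fusion construct, if it shares sequence with the gene, cannot be told apart in this bin.

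The surroundings of LMNB1 were contacted far more often than the gene. The LMNB1 bin had a frequency of 0%, against a mean of 42.4% over the 20 bins of its flanks, a difference of -42.4 percentage points ± 13.8 (SD over 118 cells). The bin was lower than its flanks in 117 of 118 cells and equal in 1, cell 119 (permutation p = 1e-05, the smallest the test can give, adjusted p = 2.29e-05). With the bin out of contact in every cell no cell could be higher, so these counts and this p-value rest on the flanks alone. Of all tested bins, 2.12% had a difference as low. Cells 1 to 94 gave -41.6 points and cells 96 to 124 gave -45.0, each with an adjusted p below 0.05. The difference narrowed to -16.9 points with flanks of 0.5 Mb and to -26.7 points at a contact value of 2, and remained past the threshold under both.

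The bins nearest to LMNB1 were almost as free of contact as its own. The gene lay in a stretch of 10 bins, from 125900001 to 126900000, in which every bin was under 20% and the frequency was 0 to 6.78%. Together with LMNB1, 3 of these bins had no contact in any cell, and the mean ratios of the 10 bins ran from 0.0456 to 0.232, with 0.0580 in the LMNB1 bin. In 98 of 118 cells the whole stretch was free of contact. The stretch had a mean frequency of 1.78% over cells 1 to 94 and of 4.64% over cells 96 to 124. In the order of protein-coding genes, ALDH7A1, PHAX and SPMIP10 precede LMNB1, and MARCHF3 and C5orf63 follow it.

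The borders of this gap differed in shape. Toward lower coordinates the frequency climbed in steps, with 3.39% in the bin at 0.2 Mb from the LMNB1 bin, 35.6% at 0.3 Mb, 52.5% at 0.4 Mb, 65.3% at 0.5 Mb and 83.9% at 0.6 Mb, and the block behind it reached 89.8% in the bin from 125300001. Toward higher coordinates neighbouring bins had 6.78% at 0.7 Mb and 82.2% at 0.8 Mb. In single cells, the nearest contact on the lower side lay at 0.3 Mb in 40 cells, at 0.4 Mb in 25, at 0.5 Mb in 18 and at 0.6 Mb in 16. On the higher side it lay at 0.8 Mb in 81 cells and at no other distance in more than 9. Within 1 Mb, 107 of 118 cells had contacts on both sides of the contact-free LMNB1 bin.

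**Figure D2:**
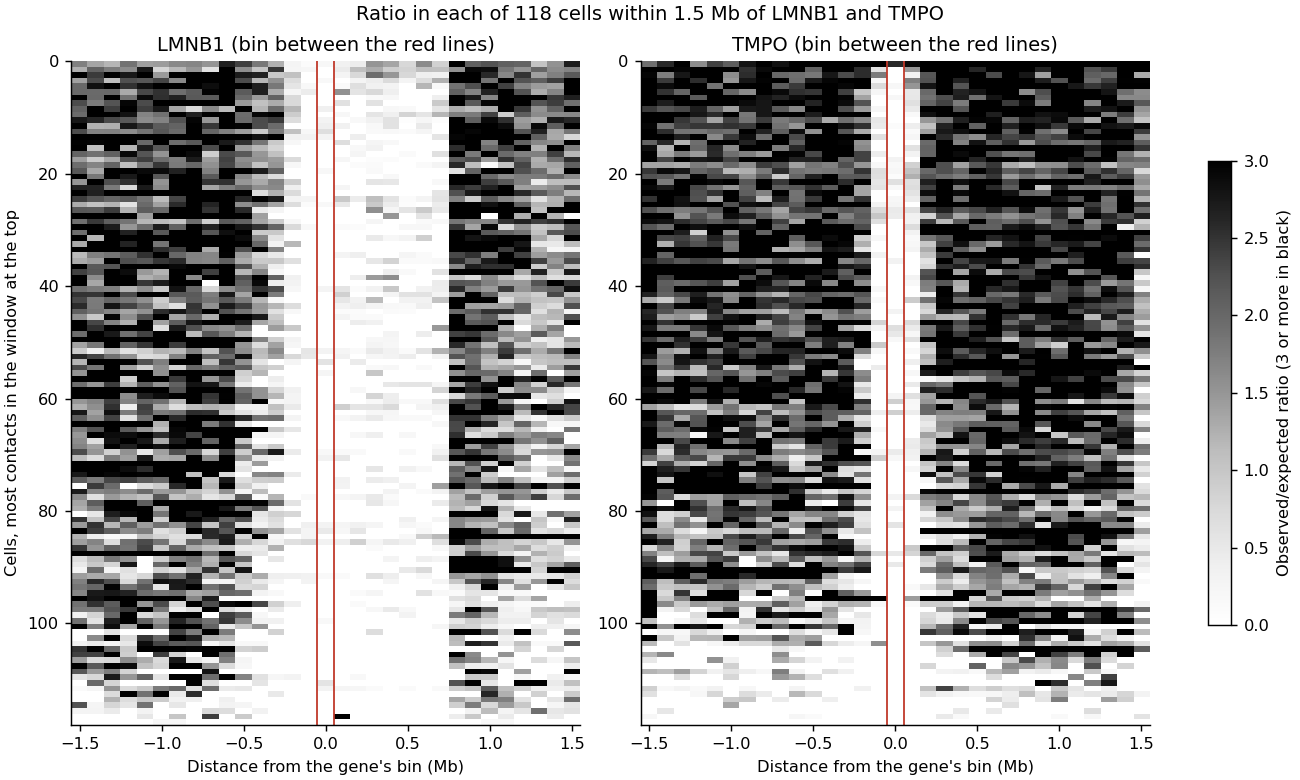
Observed over expected ratio in each of 118 cells (rows, ordered by the number of bins in contact in the window) in bins within 1.5 Mb of LMNB1 (left) and TMPO (right), from white at 0 to black at 3 or more, with the gene's bin between red lines. The LMNB1 gap is 1 Mb wide with a stepped lower and a sharp upper border, the TMPO gap is 0.3 Mb wide, and 1 cell has dark bins across TMPO.

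TMPO, which encodes the LAP2 proteins, lay in a narrow gap between frequently contacted blocks. It lies on chromosome 12 between 98.90 and 98.95 Mb, in the bin from 98900001 to 99000000. The ratio in this bin had a lowest value of 0, a median of 0 and a highest value of 2.58, and 89 of 118 cells had no read there. The pooled ratio was 0.130 (0.102 to 0.164, counting of reads only), with 13 of the 71 reads from cell 77.

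In the TMPO bin 0.847% of cells were in contact, against a mean of 73.0% over the 20 flanking bins. The difference of -72.2 percentage points ± 25.9 (SD, n = 118) was shown by 114 cells, with 0 cells in the other direction and 4 equal (permutation p = 1e-05, adjusted p = 2.29e-05). Only 8 of the 25883 tested bins, TMPO included, had a difference as low. The lower-numbered cells, 1 to 94, gave -68.8 points and cells 96 to 124 gave -83.0. Every one of the 20 flanking bins was contacted more often than the gene's own bin.

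The TMPO gap was 3 bins wide, from 98800001 to 99100000, with 5 cells in contact in the bin before the gene and 7 in the bin after it. The next bins had 60.2% on the lower side and 61.0% on the higher side, and between 0.3 and 1.0 Mb from the gene all bins had at least 76.3% on the lower side and at least 77.1% on the higher side. The nearest contact lay at 0.2 Mb in 67 cells on the lower side and in 65 cells on the higher side. In 94 of 118 cells more than 50% of the bins on each side were in contact, and in 93 of these the TMPO bin was not. The exception was cell 77, with 13 reads and a ratio of 2.58 in the bin, where a contact run of 6.5 Mb passed across the gene. In the gene order NEDD1 precedes TMPO, and SLC25A3, IKBIP and APAF1 follow it.

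LBR encodes the lamin B receptor, a membrane protein that binds B-type lamins and heterochromatin protein, and is also a sterol reductase. It lies on chromosome 1 between 225.58 and 225.62 Mb, across the bins from 225500001 and from 225600001. The first bin had ratios with a median of 0.136 and a highest value of 12.8, in cell 36, where 25 reads stood against 1.96 at a ratio of 1. The second had a median of 0 and a highest value of 2.21. Neither median came near the contact value, and the highest ratio of the first bin rests on a shallow cell of 51097 reads.

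The first LBR bin did not differ detectably from its flanks, with 13.6% of cells against 13.1%, a difference of 0.508 points ± 30.6 (SD, n = 118, adjusted permutation p = 0.924). The second bin was lower, with 4.24% against 13.6%, a difference of -9.32 points ± 20.8, lower in 71 cells and higher in 5 (adjusted permutation p = 2.29e-05). A mean hides the slope on which LBR sits, since the 10 bins on the lower side had 21.8% and the 10 on the higher side 3.98%. With flanks of 0.5 Mb the first bin was lower too, by -7.46 points. With each cell thinned to 50000 reads it was instead higher than its flanks, by 9.86 points. Few whole reads make a contact at that depth. In cell 36, of 51097 reads, a ratio of 1 in the first bin stood for 1.96 reads. The part of rounding to whole reads in this change was not tested.

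Frequencies on the lower side of LBR peaked at 50.0% in the bin from 225200001, then were 39.0, 37.3, 13.6 and 4.24% up to the second gene bin. The bin after the gene had 16.9% and those beyond 0.3 Mb on the higher side had at most 1.69%. Of the 16 cells in contact at the first bin, 13 had a contact run that extended to lower coordinates and 4 to higher ones, and the run had a median length of 0.45 Mb and reached 1.4 Mb. The genes DNAH14 and ENAH lie before and after LBR. The first bin was in contact in 13.3% of the cells up to number 94 and in 14.3% of those from number 96, where its difference from the flanks was -2.86 points (adjusted permutation p = 0.780).

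LEMD3 encodes MAN1, a LEM-domain protein of the inner membrane that binds SMAD proteins and limits TGF-beta signalling. It lies on chromosome 12 between 65.56 and 65.65 Mb, across the bins from 65500001 and from 65600001. The first bin had a median ratio of 0 and a highest value of 2.69, and the second a median of 0.102 and a highest value of 3.69. The first bin was lower than its flanks by -13.6 points ± 23.5 (SD, n = 118), with 4.24% of cells against 17.8% (adjusted permutation p = 2.29e-05). The second was lower by -6.10 points ± 29.4, with 11.0% against 17.1% (adjusted permutation p = 0.0409). This second call was lost under 7 alternatives, among them cells 1 to 94 alone (adjusted p = 0.0598) and 50000 reads per cell (adjusted p = 0.0777).

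LEMD3 lay between narrow peaks of contact. The 2 bins before the gene had 50.8 and 40.7% of cells, and the 2 bins after it 55.9 and 61.0%. Farther out the frequency was again low, at 0 to 13.6% on the lower side and 0.847 to 30.5% on the higher side within 1 Mb. Of the 13 cells in contact at the second LEMD3 bin, 13 had a contact run reaching to higher coordinates and 1 to lower ones, and of the 5 at the first bin 5 reached to lower coordinates and 1 to higher ones. A single cell had both bins in contact, so runs seldom bridged the gene. Contact was more frequent in cells 96 to 124 than in cells 1 to 94 at both bins, with 7.14 and 3.33% at the first and 21.4 and 7.78% at the second. The part of the sample number in these values was not tested. WIF1 precedes and MSRB3 follows the gene.

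**Figure D3:**
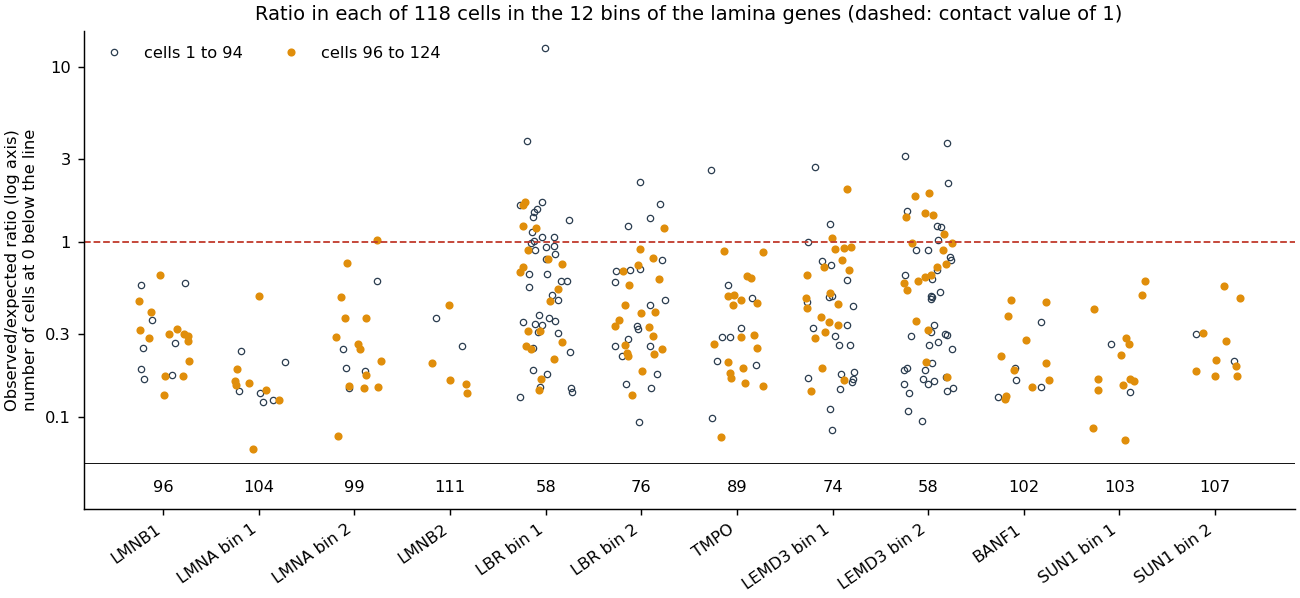
Observed over expected ratio on a log axis in each of 118 cells for the 12 gene bins, with cells numbered 1 to 94 as open circles, cells 96 to 124 as filled circles, the contact value of 1 as a dashed line and the number of cells at 0 printed below the solid line. Points above the dashed line occur for LBR, LEMD3, TMPO and the second LMNA bin.

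The other 4 genes lay in wide parts of the genome with almost no contact, so that their own bins could hardly be lower than the surroundings. LMNA, which encodes lamins A and C, lies on chromosome 1 between 156.05 and 156.11 Mb. Its first bin had 0 cells in contact and a highest ratio of 0.494. Its second had 1 cell, cell 121, where 6 reads gave a ratio of 1.03. Flanks within 1 Mb had means of 0.254 and 0.212%, and neither bin differed detectably from them (differences of -0.254 and 0.636 points, adjusted permutation p = 0.0891 and 1). For each bin 113 of 118 cells equalled their flanks, which left too few differing cells for the test to pass the threshold. With flanks of 2 Mb, which take in a peak of up to 34.7% of cells at 1.6 Mb, the differences were -3.56 and -3.35 points. Both then passed the threshold.

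LMNB2, the other B-type lamin gene, lies on the short arm of chromosome 19 between 2.42 and 2.46 Mb. Its bin had the lowest pooled ratio of the 12, 0.0203 (0.0105 to 0.0355), with 12 reads in all cells and a highest ratio of 0.441. The flanks had a mean of 0.212% and the difference was -0.212 points (adjusted permutation p = 0.311). The bin was lower in 3 cells and equal in 115, too few differing cells for the test to pass the threshold. No contact was found between the gene and the start of the chromosome in 110 of 118 cells. The stretch of usable bins under 20% around the gene spanned 20.1 Mb. Toward the chromosome start it ended at a bin that was not usable, not at a contacted one.

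BANF1, the gene of the barrier-to-autointegration factor, lies on chromosome 11 between 65.76 and 65.78 Mb. Its highest ratio was 0.466 and its pooled ratio 0.0393 (0.0254 to 0.0580), and the flanks had a mean of 0.169% (difference -0.169 points, adjusted permutation p = 0.167). With 4 cells lower and 114 equal, the test could not pass the threshold here either. SUN1, which encodes a protein of the bridge between the nuclear interior and the cytoskeleton, lies near the end of the short arm of chromosome 7, between 0.85 and 0.92 Mb. Its bins had highest ratios of 0.600 and 0.564. No cell had a contact in the 18 and 19 usable bins of their flanks, so that the test could find nothing there (adjusted permutation p = 1 for both). At a contact value of 0.5, LMNB2, BANF1 and the first LMNA bin were lower than their flanks by -1.48, -1.74 and -1.40 points and passed the threshold.

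The mean ratio ranked the bins in a similar way to the contacts. It was 0.476 ± 1.27 and 0.192 ± 0.370 in the LBR bins, 0.206 ± 0.405 and 0.368 ± 0.620 in those of LEMD3 and 0.107 ± 0.295 in that of TMPO (SD, n = 118). It was 0.0580 ± 0.136 for LMNB1, 0.0209 ± 0.0662 and 0.0517 ± 0.152 for LMNA, 0.0318 ± 0.0906 for BANF1, 0.0309 ± 0.0969 and 0.0260 ± 0.0901 for SUN1 and 0.0146 ± 0.0641 for LMNB2. Each SD, a spread between cells, exceeds its mean, and the means of different bins were not tested against each other. The median of the 12 mean ratios was 0.0548, beside 0.513 over all usable bins. The bin with no higher mean ratio in cells 96 to 124 was the first of LBR, with 0.449 there and 0.484 in cells 1 to 94. That mean of 0.484 includes the ratio of 12.8 in cell 36, so this exception leans on a single shallow cell.

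**Figure D4:**
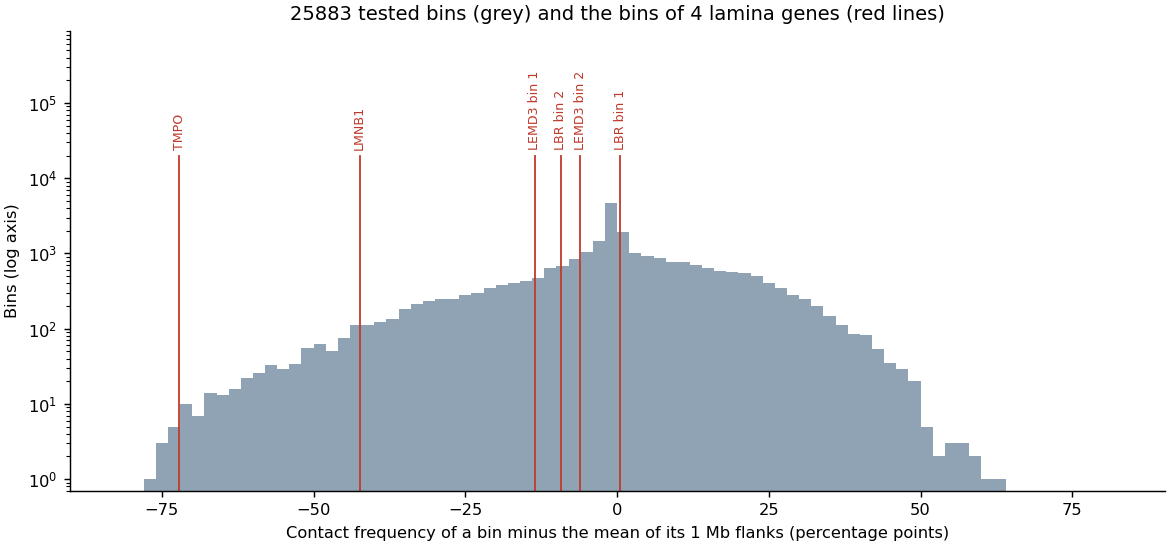
Number of tested bins (log axis) by the contact frequency of the bin minus the mean of its 1 Mb flanks, in percentage points, with red lines at the bins of TMPO (-72.2), LMNB1 (-42.4), LEMD3 (-13.6 and -6.10) and LBR (-9.32 and 0.508). The 6 gene bins not drawn lie within 1 point of 0.

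Distance to the nearest contact in the same cell set the genes apart in another way. For LMNB1 it had a lowest value of 0.1 Mb, a median of 0.4 Mb and a highest of 1.0 Mb over the 117 cells with a contact on chromosome 5. For TMPO the median was 0.2 Mb and the highest 4.1 Mb, for LEMD3 0.1 and 13.5 Mb, and for LBR 0.25 and 5.9 Mb. These 4 genes thus had a contact close by in most cells, within 1 Mb in 117, 115, 90 and 76 cells. LMNA had a median of 2.0 Mb, SUN1 of 2.5 Mb, BANF1 of 7.2 Mb and LMNB2 of 17.9 Mb, the last over the 109 cells with a contact on chromosome 19. A contact within 1 Mb was found in 6 cells for LMNA, 4 for BANF1, 3 for LMNB2 and 0 for SUN1.

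**Figure D5:**
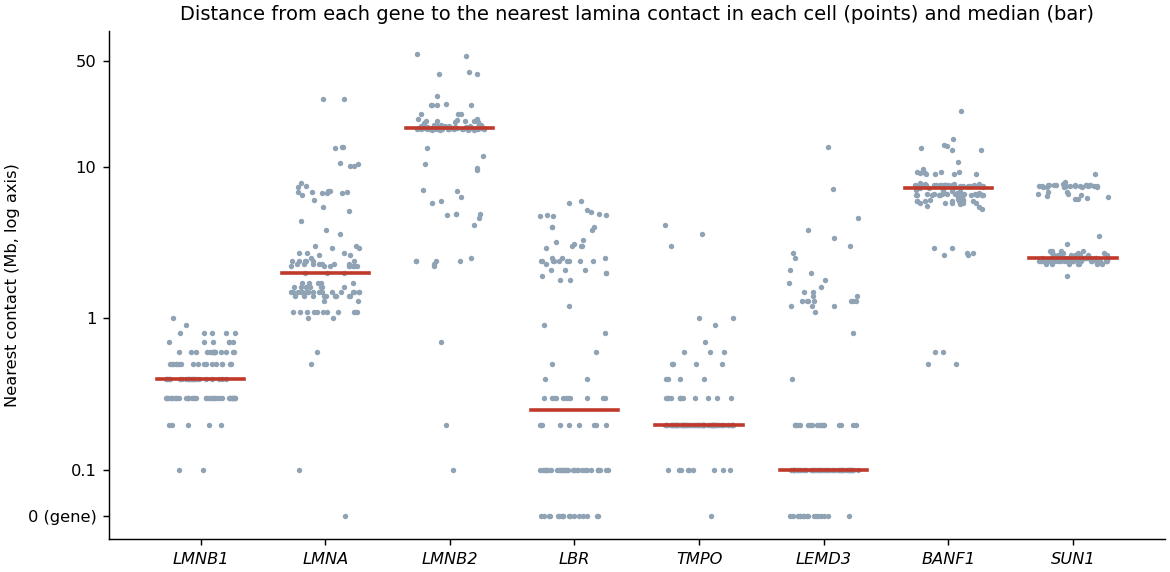
Distance in Mb (log axis) from each gene to the nearest bin in contact on the same chromosome, with a point for each cell, cells in contact at the gene drawn at the bottom as 0, and the median as a red bar. The medians are 0.4 Mb for LMNB1, 0.2 Mb for TMPO and 0.1 Mb for LEMD3, and 17.9 Mb for LMNB2.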

How the data were processed

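The authors deposited 1 table that gives, for each single cell and 100 kb bin, an observed/expected ratio, a unit taken from the file's name and checked on its values. Cutadapt, Bowtie2 2.1.0 and hg19 are named per the submitters' processing notes, with their settings and the making of the expected part not given in the sources used here. Of 124 labelled cells, 118 have a column, and samples 33, 34, 44, 86, 95 and 120 were not analysed here.

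Gene positions were those of the selection rule. Reads were recovered because the ratios of a cell are whole multiples of what 1 read is worth in each bin, and to a tolerance of 0.02 reads 100% of 1697706 values above 0 came out whole. The flank test was checked on simulated contacts, drawn independently for each bin in flat stretches of intermediate frequency. That check does not cover contact runs or bins in rarely contacted surroundings. Bins alike in pattern were to be named only for gene bins at 20% or more, of which there were 0, and other envelope genes only with hg19 positions, which were not used here. The genes, lists and tests were chosen with earlier results of these data known. Alternatives are given in the closing section. Python 3.11.15, NumPy 2.4.6, pandas 2.3.3, SciPy 1.17.1 and Matplotlib 3.10.9 were used.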

Additional observations from a re-analysis of the deposited data

How the results depend on the processing

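Under 13 alternatives, 299 values of 29 results were recomputed, and 256 kept their side of the threshold or stayed within the limits of their result. The LMNB1 and TMPO differences kept their sign and remained past the threshold under all 13. Where contacts were counted they ran from -52.7 to -16.9 and from -83.0 to -52.5 percentage points, and for log2 of the ratio plus 0.5 and plus 0.1 they were -1.17 and -2.16 for LMNB1 and -1.88 and -3.29 for TMPO. The first LBR bin changed sign to -2.97 points at a contact value of 2, to -7.46 points with flanks of 0.5 Mb and, not past the threshold, to -2.86 points in cells 96 to 124. The second LMNA bin changed sign to -3.35 points with flanks of 2 Mb and, not past the threshold, to -0.111 points in cells 1 to 94. The cause was not tested. The number of gene bins without contact was 3 at a contact value of 0.5, beside 4.95% of all usable bins, and 3 with 50000 reads per cell, beside 13.6%, which left out 9 cells. The number of gene bins higher than their flanks was 1 with 50000 reads, 1 for log2 of the ratio plus 0.5 and 1 for log2 of the ratio plus 0.1, each time the first LBR bin. In cells 96 to 124 alone, with fewer cells, 19.6% of all tested bins were higher. Leaving out cells 77 and 119 was chosen after seeing the data. No pairing of samples between groups was possible because the labels give only 1 group, and the flank test paired a bin with its flanks within each cell. Single reads decide contacts in the 14 cells where a ratio of 1 stands for under 3 reads in the median bin. Thinning to 50000 reads brings the cells kept to such a depth, and its part in the thinned values was not tested. A profile of Dam alone was not used, so accessibility and contact were not separated.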

Other observations

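Gaps as deep as that of TMPO were rare in the genome. Of 9973 tested bins in contact in at most 5% of cells, 8 had flanks with a mean frequency as high as those of TMPO (73.0%) and 290, or 2.91%, as high as those of LMNB1 (42.4%). The median over the 9973 bins was 2.46%. These limits were taken from the genes' own values after they were seen, and the counts are a description. The bin with the largest deficit against its flanks began at 103400001 on chromosome 13, with 0% against 76.4%. It was followed by chromosome X from 85200001, with 2.54% against 77.6%, and chromosome 5 from 98200001, with 4.24% against 78.6%.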
